A study of Mus musculus with 6 samples.

Results

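The 9 genes described here, which receive, pass on or end the noradrenaline signal in brown adipocytes, were lower in *Letmd1* KO brown adipose tissue (BAT) than in wild-type BAT. They are the receptor genes *Adrb1*, *Adrb3* and *Adra1a*, the G protein gene *Gnas*, the adenylyl cyclase gene *Adcy3*, the protein kinase A (PKA) genes *Prkaca* and *Prkar2b*, and the phosphodiesterase genes *Pde3b* and *Pde4d*. They were chosen by gene symbol, with earlier results of these data known, from the 23282 rows that each count file holds. All 9 symbols were found, and all 9 passed the filter on low counts that left 12995 genes for testing. The 6 samples were BAT of male C57BL/6N mice aged 5 weeks, 3 of them wild type and 3 *Letmd1* knockout (KO), and each sample is taken as 1 mouse, which the labels do not spell out. By the study's methods, the knockout-first *Letmd1* allele carries a reporter and selection cassette within an intron and comes from a single targeted embryonic stem cell clone, and it acts in the whole body and not in adipocytes alone. The labels name no drug or cold exposure in either genotype, and the comparison asks how loss of *Letmd1* goes with the RNA levels of this pathway.

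In brown adipocytes, noradrenaline from sympathetic nerves binds β-adrenergic receptors, which act through the stimulatory G protein α-subunit (Gsα, from *Gnas*) on adenylyl cyclases that make cyclic AMP. Cyclic AMP releases the catalytic subunits of PKA from its regulatory subunits, and PKA then acts on lipolytic proteins and on transcription factors of the CREB family, which raise transcription of *Ucp1*, the gene of the uncoupling protein that makes heat. Phosphodiesterases end the signal by breaking cyclic AMP down. The α1-adrenergic receptors use a separate route through phospholipase C and calcium.

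RNA was measured by QuantSeq, which reads each transcript near its 3′ end, so that a count stands for a transcript and is not divided by gene length. The 6 libraries held between 6669577 and 14574273 counts. Levels are counts per 1000000 (CPM) of the library size adjusted by the trimmed mean of M-values (TMM), a scaling that assumes that most genes do not change. *Letmd1* itself, on chr15:100469023-100479164, was counted 5658, 6490 and 5266 times in wild-type BAT and 0, 0 and 1 times in *Letmd1* KO BAT, as the labels state. Among the 12995 genes tested with edgeR's quasi-likelihood test at a Benjamini-Hochberg adjusted p of 0.05, 2897 (22.3%) lay lower in *Letmd1* KO BAT and 3082 (23.7%) lay higher. In 27.2% of the genes tested, every *Letmd1* KO mouse lay below every wild-type mouse. Scaling by library size alone gave 1371 lower and 5891 higher genes and shifted the median change over all genes tested from 0.03 to 0.45 on the log2 scale, so each change is relative to most other genes. The tissue is a bulk sample, in which fewer cells of a type and less RNA per cell cannot be told apart. Muscle transcripts were low in wild-type replicates 1 and 3 and higher in the other 4 mice.

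All 9 genes were lower in *Letmd1* KO BAT past the threshold, beside 22.3% of all genes tested. None of the 9 overlapped between the genotypes, with every *Letmd1* KO mouse below every wild-type mouse, beside 27.2% of all genes tested. Because the 9 genes were chosen with earlier results of these data known, these comparisons are descriptions and not tests. Their mean levels in *Letmd1* KO mice were between 21.1% and 45.1% of the wild-type means. The median log2 fold change of the 9 genes was -1.34, beside 0.03 over all genes tested. The changes were of unequal size, with *Adrb3* and *Gnas* below -2 on the log2 scale and the other 7 genes between -1.48 and -1.15. For *Gnas* that split was lost after quantile normalization, where *Gnas* was at -1.27 and *Pde4d* at -1.33. Under scaling by library size alone the values moved up but the split held. There *Adrb3* was at -1.86 and *Gnas* at -1.73, and the other 7 genes lay between -1.06 and -0.73. The direction of all 9 was negative under each scaling tried.

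**Figure D1:**
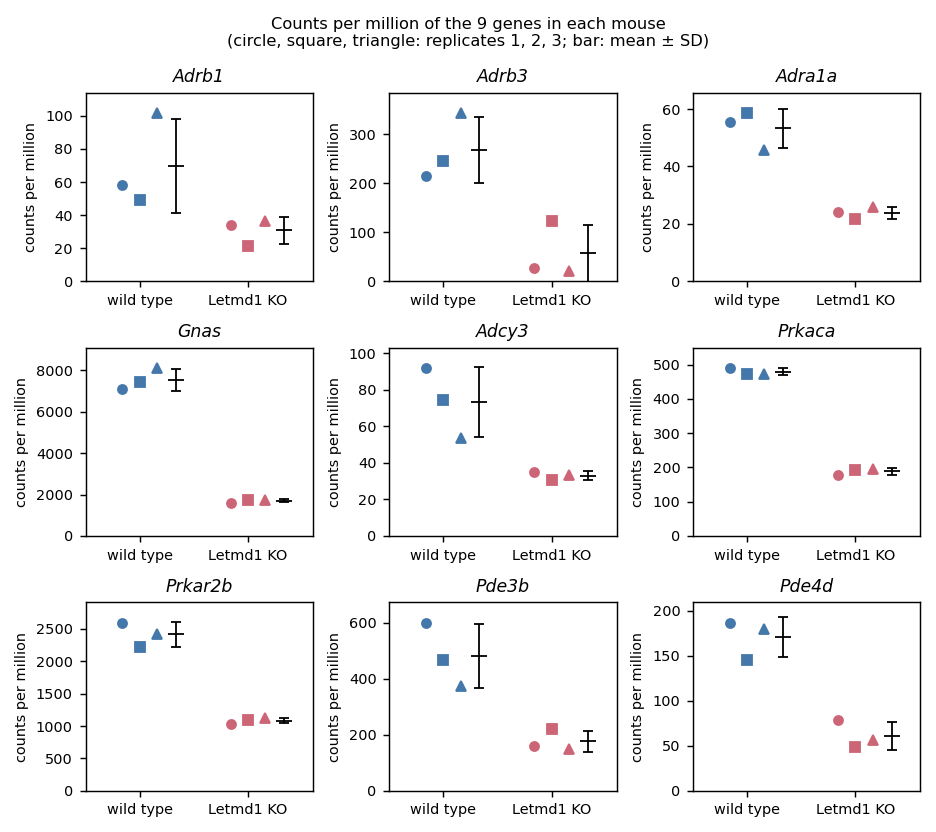
CPM of each of the 9 genes in every mouse, with the y axis from 0 in each panel, wild type in blue and *Letmd1* KO in red, and the mean ± SD (n = 3) beside the points. Every *Letmd1* KO point lies below every wild-type point in all 9 panels, and in *Adrb3* the square of *Letmd1* KO replicate 2 stands apart at 123 CPM, where the lower end of the SD falls below the axis.

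*Adrb3*, on chr8:27225776-27250616 (GRCm38, minus strand), encodes the β3-adrenergic receptor, the β-receptor characteristic of adipocytes. Its exons overlap those of *Gm45470* on the opposite strand, and use of strand in counting is not given in the sources used here. The *Adrb3* level was 215, 245 and 343 CPM in the 3 wild-type mice and 26.0, 123 and 20.9 CPM in the 3 *Letmd1* KO mice. *Letmd1* KO replicates 1 and 3 were close to each other, whereas replicate 2 lay between them and the wild-type range. The log2 fold change was -2.27 ± 0.59 (SE, n = 3 per genotype, edgeR adjusted p = 0.0114). Without *Letmd1* KO replicate 2 it was -3.52 (edgeR adjusted p = 1.28e-05), so that mouse sets the size of the *Adrb3* change but not its direction. *Adipoq*, the gene of the adipocyte hormone adiponectin, was also high in that mouse, at 1366 CPM beside 502 and 562 CPM in the other *Letmd1* KO mice and 2392, 2018 and 2058 CPM in the wild-type mice.

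*Adrb1*, on chr19:56722199-56733113 (plus strand), encodes the β1-adrenergic receptor, which also couples to Gsα. It had 57.9, 49.2 and 102 CPM in wild-type mice and 34.03, 21.4 and 36.6 CPM in *Letmd1* KO mice. The wild-type mice spread widely, with replicate 3 at the top, and the gap between the genotypes was narrow. Its log2 fold change was -1.17 ± 0.29 (SE, n = 3, edgeR adjusted p = 0.00853).

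*Adra1a*, on chr14:66635251-66771168 (plus strand), encodes the α1A-adrenergic receptor of the calcium route. It had 55.5, 58.7 and 45.7 CPM in wild-type mice and 24.0, 21.7 and 25.7 CPM in *Letmd1* KO mice. The replicates of each genotype were close together, and the log2 fold change was -1.16 ± 0.14 (SE, n = 3, edgeR adjusted p = 0.000199). The other α1-receptor genes were near the detection limit and did not pass by the reported fit. After quantile normalization *Adra1d* was at -1.02 and passed (limma adjusted p = 0.00397, n = 3), and *Adra1b* did not pass. *Adra1b* had 9 to 20 counts in any mouse, with a log2 fold change of -0.08 ± 0.57 (SE, edgeR adjusted p = 0.918 with n = 3), and *Adra1d* had 9 to 22 counts, with -0.34 ± 0.40 (SE, edgeR adjusted p = 0.522 with n = 3). *Adra2a*, *Adra2b* and *Adra2c*, whose receptors couple to inhibitory G proteins, had at most 15 counts in any mouse and were not tested by the reported fit.

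*Gnas*, on chr2:174284320-174346744 (plus strand), encodes Gsα, the subunit that switches adenylyl cyclases on. Its level ranked 8 among all genes tested in wild-type BAT, where it made up 0.607% to 0.692% of all counts. It had 7095, 7418 and 8123 CPM in wild-type mice and 1604, 1754 and 1738 CPM in *Letmd1* KO mice. The *Letmd1* KO mice agreed closely and sat at less than any wild-type value by a wide gap. The log2 fold change was -2.15 ± 0.15 (SE, n = 3, edgeR adjusted p = 1.08e-05), which left 22.5% of the wild-type mean. The other products of this imprinted locus share the last exons of Gsα, so counts at the 3′ end do not separate them. The antisense gene *Nespas* had 0 counts in 4 mice and 3 and 2 counts in the other 2. Exons of *Gm20721*, also on the opposite strand, overlap those of *Gnas* too, and use of strand in counting is not given.

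*Adcy3*, on chr12:4133103-4213525 (plus strand), encodes an adenylyl cyclase of the plasma membrane. It had 92.1, 74.2 and 53.7 CPM in wild-type mice and 35.2, 30.4 and 33.5 CPM in *Letmd1* KO mice, with a log2 fold change of -1.15 ± 0.19 (SE, n = 3, edgeR adjusted p = 0.000979). The wild-type mice differed from each other more than the *Letmd1* KO mice did. This value is uncertain as to its gene, because exons of *Adcy3* overlap those of *Cenpo*, a centromere protein gene on the opposite strand. *Cenpo* had 887, 722, 431, 362, 253 and 628 counts where *Adcy3* had 855, 701, 412, 321, 230 and 571 counts in the same mice, wild type first. *Adcy3* thus had between 88.7% and 97.1% of the *Cenpo* count in every mouse. Whether strand was used in counting is not given in the sources used here, and reads of the 2 genes cannot be told apart.

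*Prkaca*, on chr8:83972993-83996443 (plus strand), encodes the catalytic subunit Cα of PKA. It had 491, 474 and 474 CPM in wild-type mice and 176, 194 and 197 CPM in *Letmd1* KO mice. Replicates of both genotypes lay close together, and the log2 fold change was -1.34 ± 0.10 (SE, n = 3, edgeR adjusted p = 1.67e-05). *Prkar2b*, on chr12:31958476-32061296 (minus strand), encodes RIIβ, the regulatory subunit abundant in adipose tissue. It ranked 50 in wild-type BAT and had 2598, 2220 and 2423 CPM in wild-type mice and 1038, 1090 and 1119 CPM in *Letmd1* KO mice. Its log2 fold change was -1.16 ± 0.13 (SE, n = 3, edgeR adjusted p = 0.000103). After quantile normalization the *Prkar2b* change was -0.29 and did not pass (limma adjusted p = 0.0821).

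*Pde3b*, on chr7:114415281-114539251 (plus strand), encodes the phosphodiesterase through which insulin lowers cyclic AMP in adipocytes. It had 601, 466 and 376 CPM in wild-type mice and 161, 219 and 150 CPM in *Letmd1* KO mice. Its log2 fold change was -1.45 ± 0.20 (SE, n = 3, edgeR adjusted p = 0.00038). *Pde4d*, on chr13:108449948-109953461 (plus strand), encodes a cyclic AMP-specific phosphodiesterase. It had 187, 146 and 180 CPM in wild-type mice and 78.7, 48.8 and 56.3 CPM in *Letmd1* KO mice, with a log2 fold change of -1.48 ± 0.18 (SE, n = 3, edgeR adjusted p = 0.0002).

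The promoters of the 9 genes were examined for the cyclic AMP response element (CRE), the binding sequence of CREB family factors, because these factors are an end point of the pathway. RefSeq promoter windows (GRCm38.p6, 250 bases before to 50 after a start) were found for 6 of the 9 genes, in 12 windows. The full element TGACGTCA was in none of the 12 windows and in 1.79% of all 32851 windows. Its core TGACG, read on either strand as TGACG or CGTCA and contained in the full element, was in 5 of the 12 windows, of 3 genes, beside 20.8% of all windows. Of those 5 windows 3 belong to *Gnas*, and 2 of these overlap and hold the same site, so the 5 are not separate sites. A match is a description of the letters only. A window with the core is shown 5′ to 3′ for 1 receptor, 1 G protein and 1 kinase gene, with each core in capitals, for *Adrb1* at chr19:56721867-56722166 (plus strand), for the most downstream of the 4 *Gnas* windows at chr2:174329756-174330055 (plus strand) and for *Prkaca* at chr8:83972728-83973027 (plus strand).
Adrb1: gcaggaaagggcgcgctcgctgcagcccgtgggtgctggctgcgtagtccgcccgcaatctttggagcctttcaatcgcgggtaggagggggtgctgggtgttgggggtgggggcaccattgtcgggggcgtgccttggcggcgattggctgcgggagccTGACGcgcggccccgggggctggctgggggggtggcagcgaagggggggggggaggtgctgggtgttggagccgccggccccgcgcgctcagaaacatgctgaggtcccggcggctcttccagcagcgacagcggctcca
Gnas: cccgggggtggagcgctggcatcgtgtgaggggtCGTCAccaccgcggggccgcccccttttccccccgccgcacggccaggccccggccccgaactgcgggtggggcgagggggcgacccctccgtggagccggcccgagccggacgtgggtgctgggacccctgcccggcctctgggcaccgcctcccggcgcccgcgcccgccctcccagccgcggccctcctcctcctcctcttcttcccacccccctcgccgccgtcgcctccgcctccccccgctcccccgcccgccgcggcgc
Prkaca: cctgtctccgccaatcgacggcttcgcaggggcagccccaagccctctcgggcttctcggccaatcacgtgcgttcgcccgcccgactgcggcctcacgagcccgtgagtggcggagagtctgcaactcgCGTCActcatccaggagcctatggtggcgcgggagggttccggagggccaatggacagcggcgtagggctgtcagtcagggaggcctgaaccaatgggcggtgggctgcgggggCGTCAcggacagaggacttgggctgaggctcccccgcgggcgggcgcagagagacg
The core began 90 bases before the start in *Adrb1*, 216 bases before it in the *Gnas* window shown, 38 and 57 bases before the starts of the overlapping *Gnas* windows not shown, and first 120 bases before it in *Prkaca*, which held 2. The windows of *Adcy3*, *Prkar2b* and *Pde4d* held none. *Adrb3*, *Adra1a* and *Pde3b* had no window.

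To ask whether the 9 genes fell with their families or ahead of them, the share of each gene in the counts of its family was taken within each mouse, which no scaling between libraries can change. Of 7 such shares and ratios that were planned, 4 did not overlap between genotypes, and neither did the 3 that were added after the values were seen. With 3 mice against 3, an exact two-sided permutation test cannot go below p = 0.1, which is 0.143 after Benjamini-Hochberg adjustment over the 10.

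*Prkaca* made up 83.9%, 85.6% and 84.2% of the counts of the catalytic subunit genes *Prkaca* and *Prkacb* in wild-type mice and 75.6%, 76.1% and 77.0% in *Letmd1* KO mice (exact permutation p = 0.1). The difference of means was -8.33 percentage points, since *Prkacb* changed less, with a log2 fold change of -0.57 ± 0.11 (SE, edgeR adjusted p = 0.00227 with n = 3). *Prkar2b* made up 87.5% ± 1.24 of the regulatory subunit counts in wild-type and 78.8% ± 0.75 in *Letmd1* KO mice (SD, n = 3, exact permutation p = 0.1). The log2 ratio of catalytic to regulatory subunit counts was -2.28 ± 0.06 in wild-type and -2.47 ± 0.04 in *Letmd1* KO mice (SD, n = 3, exact permutation p = 0.1). In summed CPM the catalytic genes were at 43.7% and the regulatory genes at 49.8% of the wild-type mean.

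*Gnas* made up 92.0%, 91.9% and 93.1% of the counts of 8 Gα genes in wild-type mice and 68.2%, 68.5% and 69.3% in *Letmd1* KO mice (exact permutation p = 0.1). This difference of -23.6 percentage points was far larger than the SD of 0.63 in wild-type and 0.55 in *Letmd1* KO mice. The summed level of the other 7 Gα genes was 625 ± 24.5 CPM in wild-type and 774 ± 30.3 CPM in *Letmd1* KO mice (SD, n = 3). The log2 ratio of the PKA inhibitor genes *Pkia*, *Pkib* and *Pkig* to the catalytic subunit genes was -5.03 ± 0.30 in wild-type and -2.31 ± 0.09 in *Letmd1* KO mice (SD, n = 3, exact permutation p = 0.1). Both of these were added after the values were seen.

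*Pde4d* made up 50.8%, 49.8% and 51.4% of the counts of the 4 *Pde4* genes in wild-type mice and 39.1%, 47.2% and 33.5% in *Letmd1* KO mice (exact permutation p = 0.1), with *Letmd1* KO replicate 2 near the wild-type range. *Pde3b* made up at least 99.8% of the *Pde3* counts in every mouse. *Adcy3* made up 23.2% ± 1.92 of the adenylyl cyclase counts in wild-type and 20.7% ± 1.98 in *Letmd1* KO mice (SD, n = 3, exact permutation p = 0.3), with the limit given by *Cenpo*. The log2 ratio of *Adrb3* to *Adrb1* was 1.99 ± 0.29 in wild-type and 0.44 ± 1.81 in *Letmd1* KO mice (SD, n = 3, exact permutation p = 0.4). Within the *Letmd1* KO mice it was -0.39, 2.52 and -0.81, so that replicate 2 alone lay above the wild-type values of 1.89, 2.32 and 1.75, and the difference of means was -1.55 with that mouse and -2.59 without it. Relative to *Adipoq* in the same mouse, a ratio chosen after the values were seen, log2 *Adrb3* was -3.48, -3.04 and -2.58 in wild-type mice and -4.27, -3.48 and -4.75 in *Letmd1* KO mice, where the highest *Letmd1* KO value of -3.477 lay below the lowest wild-type value of -3.475, which barely parts the groups (exact permutation p = 0.1).

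**Figure D2:**
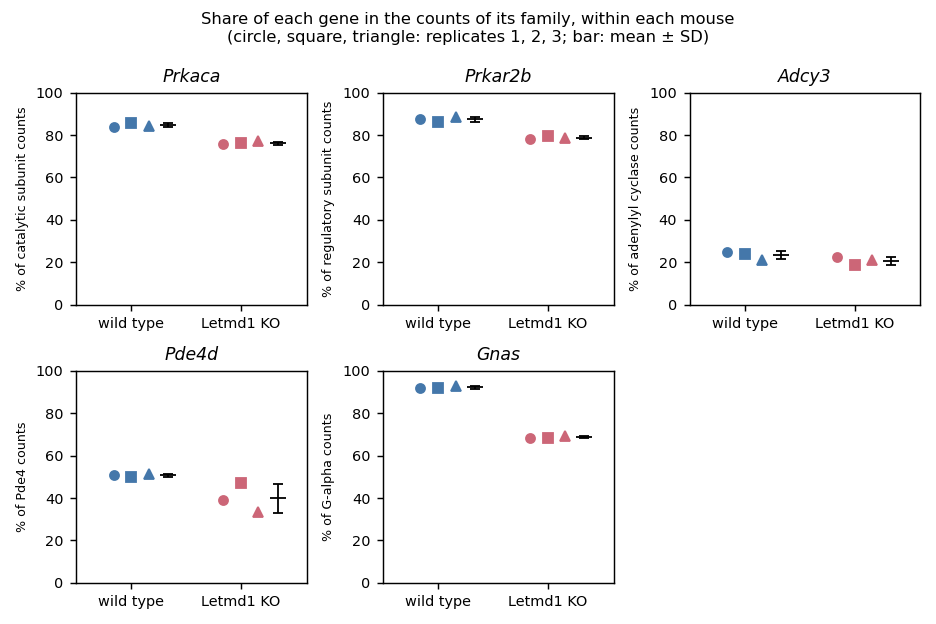
Percentage of the counts of a gene family taken by *Prkaca*, *Prkar2b*, *Adcy3*, *Pde4d* and *Gnas* within each mouse, on an axis from 0 to 100%, with the mean ± SD (n = 3) beside the points. The *Gnas* share had a mean of 92.3% in wild-type and 68.7% in *Letmd1* KO mice with tight replicates, whereas the *Adcy3* share overlapped between genotypes.

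The rest of the pathway was described from 134 further genes in lists by role, of which 133 had a row and 118 were tested. Of these 118 genes, 48 lay lower in *Letmd1* KO BAT, 19 lay higher and 51 did not pass. Of all genes tested, 22.3% lay lower and 23.7% lay higher. The median log2 fold change of the 118 genes was -0.35, beside 0.03 over all genes tested. The lists too were chosen with earlier results of these data known, so the counts are descriptions. Counts lower and higher in each list below are to be read beside those same shares of all genes tested. The genes named here are, in each list, the lowest and the highest of those that passed.

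Among 14 other G protein-coupled receptors tested, 8 were lower and 0 were higher by the reported fit. *Ffar4*, a receptor for long-chain fatty acids, was lowest at -3.13 ± 0.32 (log2 fold change ± SE). Without *Letmd1* KO replicate 1 the number lower was 4, without *Letmd1* KO replicate 3 it was 5, and with muscle markers as a covariate it was 4. Without wild-type replicate 3 the list had 7 lower and 2 higher, and under library size alone 6 lower and 1 higher. Of 13 G protein genes other than *Gnas*, 4 were lower and 5 were higher. *Gna11*, a Gq-family subunit, was lowest at -0.99 ± 0.10 and *Gng2*, a γ-subunit, was highest at 1.83 ± 0.27, and *Gng5* among those lower turned to 0.05 under scaling by library size alone. With *Gnas* included, the 14 G protein genes were 5 lower and 5 higher, 3 and 7 under library size alone and 3 and 6 after quantile normalization. Of 11 genes of receptor desensitisation and G protein regulation, 5 were lower and 0 were higher, with *Rgs2*, a regulator of G protein signalling, at -2.19 ± 0.32. Under library size alone 3 were lower and 1 was higher.

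Of the other 6 adenylyl cyclase genes tested, 3 were lower and 1 was higher. *Adcy10*, the soluble bicarbonate-sensitive cyclase, was lowest at -2.22 ± 0.56, from 58, 67 and 51 counts in wild-type mice and 5, 25 and 13 in *Letmd1* KO mice, and was -3.28 without *Letmd1* KO replicate 2. *Adcy7*, a cyclase prominent in immune cells, was highest at 2.33 ± 0.38. The summed level of the 10 cyclase genes was 313 ± 58.7 CPM in wild-type and 160 ± 3.53 CPM in *Letmd1* KO mice (SD, n = 3). This sum includes *Adcy3*, with the limit given by *Cenpo*. Of the 7 other PKA genes, 2 were lower and 4 were higher. *Prkacb* was the lowest of those that passed by the rule, although it did not pass under scaling by library size alone (log2 fold change -0.15), and *Prkar1a*, the other one lower, turned to 0.11 there and to 0.01 after quantile normalization. Its call was made in 1 of 6 fits that left out a mouse. *Pkia*, a PKA inhibitor, was highest by the rule at 1.93 ± 0.33, from 20 to 32 counts in wild-type and 59 to 265 counts in *Letmd1* KO mice. *Pkib*, with a mean under 20 counts, had 1, 2 and 0 counts in wild-type and 14, 40 and 34 counts in *Letmd1* KO mice. The PKA inhibitor genes summed to 17.6 ± 4.41 CPM in wild-type and 50.2 ± 3.71 CPM in *Letmd1* KO mice (SD, n = 3). Most of the wild-type sum came from *Pkig*, the third of these genes, with a log2 fold change of 1.30 ± 0.19 (SE, n = 3, edgeR adjusted p = 0.000537).

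Of 10 A-kinase anchoring protein genes, 4 were lower and 2 were higher, with *Akap7* at -1.23 ± 0.15 and *Akap12* at 1.64 ± 0.14, and *Akap9* among those lower turned to 0.02 under scaling by library size alone, where 2 were lower and 3 were higher. Of 5 genes of Epac, the other cyclic AMP sensor, and of cyclic AMP export, 0 were lower and 2 were higher. *Abcc4*, a transporter that exports cyclic AMP, had 16.3, 15.8 and 11.6 CPM in wild-type and 125, 67.0 and 138 CPM in *Letmd1* KO mice, with a log2 fold change of 2.92 ± 0.27 (SE, n = 3, edgeR adjusted p = 4.05e-05). Of the 11 other phosphodiesterase genes tested, 3 were lower and 2 were higher, with *Pde8a* at -1.34 ± 0.30 and *Pde1b* at 0.86 ± 0.24. The *Pde1b* call was made in 4 of 6 fits that left out a mouse, and that of *Pde7a*, the other gene higher, in 1 of 6. With *Pde3b* and *Pde4d* included, 5 of 13 were lower and 2 were higher, but 8 were lower and 0 were higher after quantile normalization (limma adjusted p = 0.0591 for *Pde1b* and 0.155 for *Pde7a*, n = 3). The 16 phosphodiesterase genes summed to 959 ± 132 CPM in wild-type and 446 ± 11.9 CPM in *Letmd1* KO mice (SD, n = 3).

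Of 12 genes of the CREB family and its coactivators, 3 were lower, 1 was higher and 8 did not pass, with a median log2 fold change of -0.12. *Sik2*, a kinase that restrains the CREB coactivators, was lowest at -1.65 ± 0.19, *Crtc3*, a coactivator, was highest at 0.58 ± 0.19 with its call made in 1 of 6 fits that left out a mouse, and *Ep300* among those lower turned to 0.07 under scaling by library size alone. The balance of this list turned with the scaling, with 1 lower and 4 higher (median 0.30) under library size alone and 1 lower and 0 higher after quantile normalization. Of 16 genes known to be induced by cyclic AMP in fat or other tissues, 7 were lower and 1 was higher, with *Pck1* among those lower turning to 0.07 after quantile normalization. *Elovl3*, a fatty acid elongase induced by cold, was lowest at -4.74 ± 0.59, from 157, 382 and 268 counts to 7, 22 and 6 counts, and was -5.89 without *Letmd1* KO replicate 2 and -4.10 without replicate 3. *Fos*, an immediate early gene, was highest at 3.10 ± 0.65, from 2, 5 and 8 counts to 25, 69 and 61 counts, and ranged from 2.44 to 3.70 as the *Letmd1* KO replicate 2 or the wild-type replicate 3 was left out.

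All 5 genes listed for lipolysis were lower by the reported fit, with *Pnpla2*, the adipose triglyceride lipase gene, lowest at -1.58 ± 0.13. The list also holds a lipase inhibitor gene, *G0s2*, so its genes do not all act on lipolysis in the same direction. Under library size alone or with muscle markers as a covariate 4 of the 5 passed, and after quantile normalization 3 did, where *Pnpla2* was at -0.70 and *G0s2*, an inhibitor gene of that lipase, did not pass (limma adjusted p = 0.0841, n = 3). *Lipe*, the hormone-sensitive lipase gene, changed least in this list and turned to 0.33 after quantile normalization. In the α1-receptor branch, 5 of 12 genes other than *Adra1a* were lower and 1 was higher, with *Plcb4*, a phospholipase C, at -1.26 ± 0.21 and *Prkcd*, a protein kinase C, at 1.88 ± 0.23. With *Adra1a* included, the branch had 6 lower and 1 higher of 13, and 4 lower and 3 higher under library size alone.

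**Figure D3:**
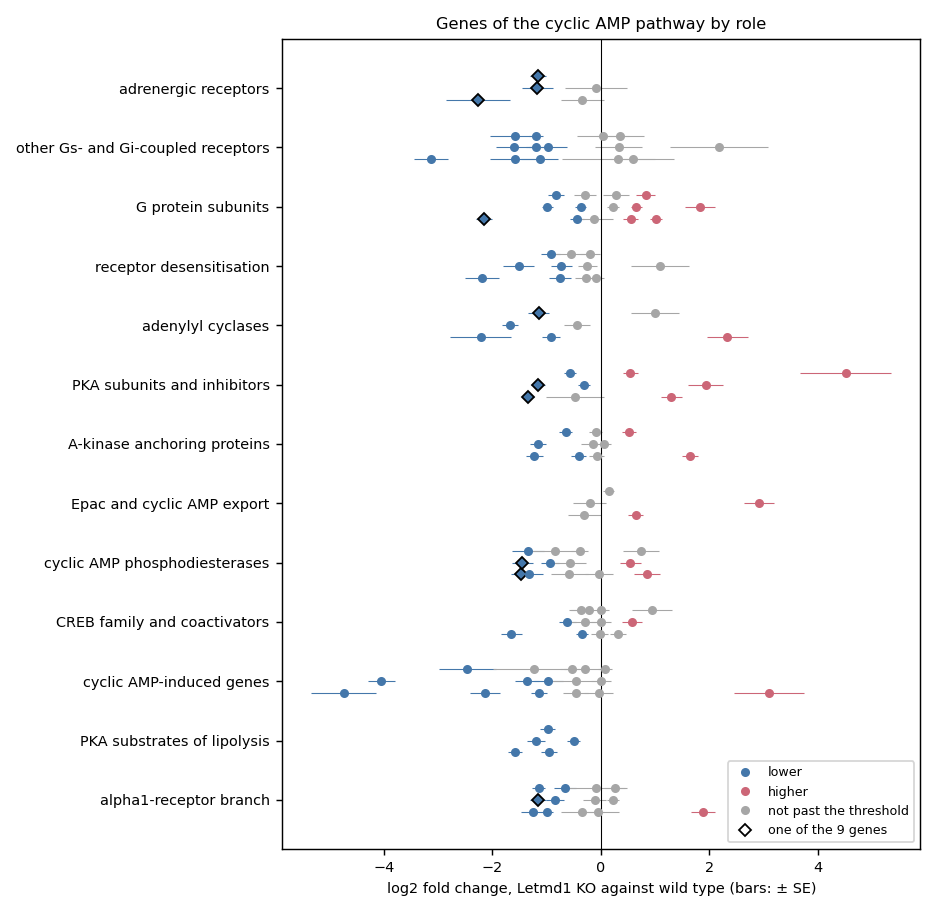
Log2 fold change of *Letmd1* KO against wild-type BAT (x axis, bars ± SE, n = 3 per genotype) for each tested gene of 13 lists by role (y axis), coloured by whether the edgeR adjusted p passed and in which direction. The 9 genes, drawn as black-edged diamonds, all lie left of -1, while other genes of the G protein, PKA and anchoring protein lists lie on both sides of 0.

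The 9 genes were then set beside cell type markers. Counts of markers are to be read beside the 22.3% lower and 23.7% higher of all genes tested. Of 8 adipocyte markers, 5 were lower and 1 was higher, with a median log2 fold change of -0.74, and their summed level was 32036 to 36554 CPM in wild-type and 11645 to 17199 CPM in *Letmd1* KO mice. Of 7 brown adipocyte markers, among them *Ucp1* and *Elovl3*, which the list of cyclic AMP-induced genes also holds, 6 were lower and 0 were higher, with a median of -1.80. All 10 macrophage markers were higher, with a median of 2.52 and a summed level of 186 to 259 CPM in wild-type and 1106 to 1842 CPM in *Letmd1* KO mice. All 8 fibroblast and progenitor markers were higher, with a median of 1.39 and 1663 to 2113 against 4061 to 7001 CPM. No marker of these 4 lists was at 0 in all mice. The part of these cell types in the lower values of the 9 genes was not tested.

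The 14 skeletal muscle markers tested had a median log2 fold change of 2.16, and 2 of them passed, or 12 without wild-type replicate 2. Their summed level was 85.3, 548 and 98.3 CPM in wild-type mice and 510, 394 and 1428 CPM in *Letmd1* KO mice. With the mean of the muscle markers as a covariate, *Adrb1* (log2 fold change -0.78, edgeR adjusted p = 0.187) and *Adrb3* (log2 fold change -1.84, edgeR adjusted p = 0.0781) no longer passed and the other 7 genes did. Without wild-type replicate 2 all 9 genes passed. That fit cannot separate muscle content from genotype, because the wild-type mice left were the lowest in muscle markers, at 85.3 and 98.3 CPM. Endothelial markers were 3 lower and 1 higher of 8, smooth muscle and pericyte markers 1 lower and 3 higher of 8, and blood markers 0 of 6 in either direction. Of 9 Schwann cell and nerve markers, 5 were tested and 3 were higher, all of them glial. *Th*, *Dbh* and *Prph*, whose proteins mark the sympathetic and other nerve fibres, had 0 counts in all 6 mice. This allows up to 3 counts per library, or 0.176 to 0.397 CPM, and counting error only is covered by that limit. The RNA of these genes at 0 is not read as a lack of nerve fibres in the tissue.

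The 9 genes were also taken relative to the mean of the 8 adipocyte markers in the same mouse. On this scale, 6 of the 9 had every *Letmd1* KO mouse below every wild-type mouse, beside 8.55% of all genes tested. Because the 9 genes were chosen with earlier results of these data known, this comparison is a description and not a test. The log2 difference was -2.24 for *Adrb3*, -1.70 for *Gnas*, -1.05 for *Pde4d*, -0.99 for *Pde3b*, -0.90 for *Prkaca* and -0.71 for *Prkar2b* (exact permutation p = 0.1 for each, n = 3, the smallest possible). The differences of *Adra1a* at -0.70, *Adrb1* at -0.69 and *Adcy3* at -0.66 overlapped between genotypes. The values depended on the reference. The marker mean itself differed by -0.45 between genotypes and overlapped (exact permutation p = 0.3, n = 3). Of its 8 markers 5 were lower, but it also held *Retn* at 1.79 and *Lep* at 1.15, and the median change of the markers was -0.74. Against the median of the same markers, the differences of *Adrb1*, *Adra1a*, *Adcy3* and *Prkar2b* were within 0.09 of 0, *Prkaca*, *Pde3b* and *Pde4d* lay between -0.43 and -0.28, *Gnas* was at -1.08 and *Adrb3* at -1.62. Against the mean of the brown adipocyte markers, 7 of the 9 genes were higher in *Letmd1* KO mice, by 0.71 to 1.09, with an exact permutation p of 0.1 for 6 of them and 0.2 for *Pde3b*. On that scale every *Letmd1* KO mouse lay above every wild-type mouse for those 6 genes and for 96.2% of all genes tested, so nothing is read from it about these genes. *Gnas* differed by 0.06 (exact permutation p = 0.8) and *Adrb3* by -0.48 (exact permutation p = 0.5).

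**Figure D4:**
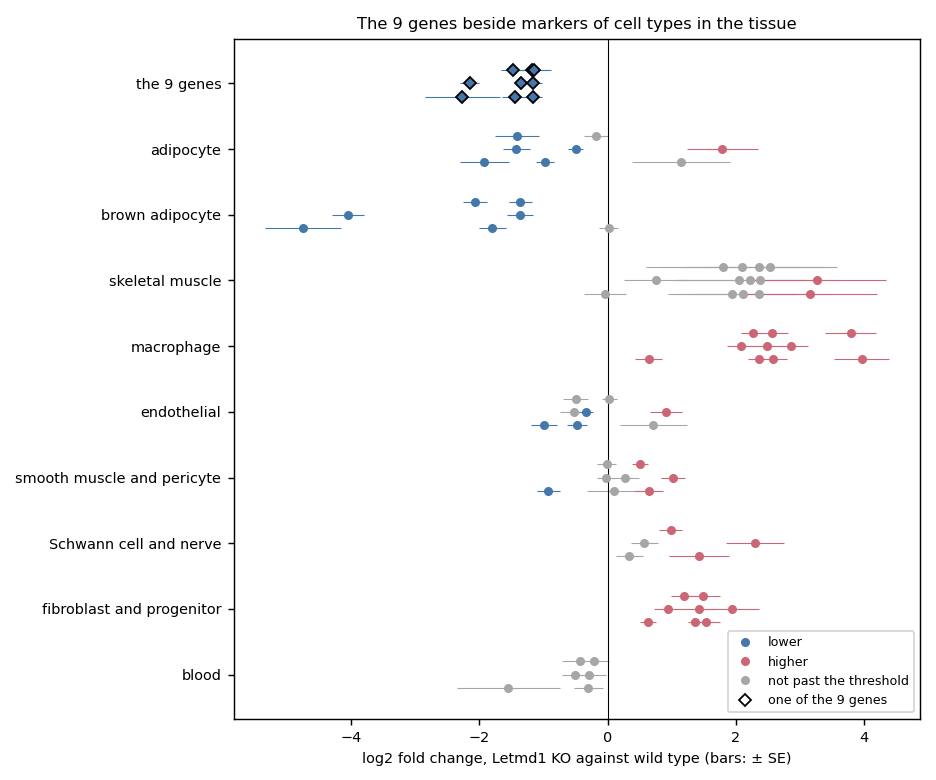
Log2 fold change of *Letmd1* KO against wild-type BAT (x axis, bars ± SE, n = 3 per genotype) for the 9 genes and for each tested marker of 9 cell types (y axis). The 9 genes lie in the range of the 5 adipocyte and 6 brown adipocyte markers that were lower, opposite to all 10 macrophage and all 8 fibroblast and progenitor markers. In the same lists *Retn* was higher at 1.79, and *Lep* at 1.15, *Pparg* at -0.18 and *Ebf2* at 0.02 did not pass.

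The genes whose profile over the 6 mice was most like that of each of the 9 genes were found by Euclidean distance between centred log2 CPM values, over genes with a mean of at least 50 counts. Nearest to *Adrb3* were *Hp* (distance 0.46), the haptoglobin gene, *Slc25a1* (0.55), the mitochondrial citrate carrier gene, and *Apoc3* (0.61), an apolipoprotein gene. All had an intermediate value in *Letmd1* KO replicate 2, as *Hp* with 90.4, 311 and 54.2 CPM in the *Letmd1* KO mice shows. Nearest to *Adrb1* were *Ppp1r3d* (0.26), *Prkab1* (0.28) and *Axin2* (0.32), which shared its high wild-type replicate 3 and low *Letmd1* KO replicate 2. Nearest to *Adra1a* were *Smpd1* (0.09), *Slc25a11* (0.16) and *D2hgdh* (0.19). Nearest to *Gnas* were *Ddhd2* (0.27), *Fam195a* (0.27) and *Eno1b* (0.27), at about 3 times the distance of the gene nearest to *Adra1a*. Nearest to *Adcy3* were *Cenpo* (0.12), the overlapping gene, *Flcn* (0.19) and *Sh3d21* (0.21).

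Both PKA genes had close neighbours with little spread between replicates. For *Prkaca* these were *Acad10* (distance 0.09), *Kctd2* (0.11) and *2010107E04Rik* (0.13), and for *Prkar2b* they were *Atpaf2* (0.09), an assembly factor gene of ATP synthase, *Myeov2* (0.13) and *Cox8a* (0.13), a subunit gene of cytochrome c oxidase. The phosphodiesterase genes had more distant ones. For *Pde3b* these were *Por* (0.20), the gene of the electron donor to cytochrome P450 enzymes, *Pxmp4* (0.36) and *Trit1* (0.38), and for *Pde4d* they were *Csrnp1* (0.29), *5930403L14Rik* (0.31) and *2310067B10Rik* (0.34).

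**Figure D5:**
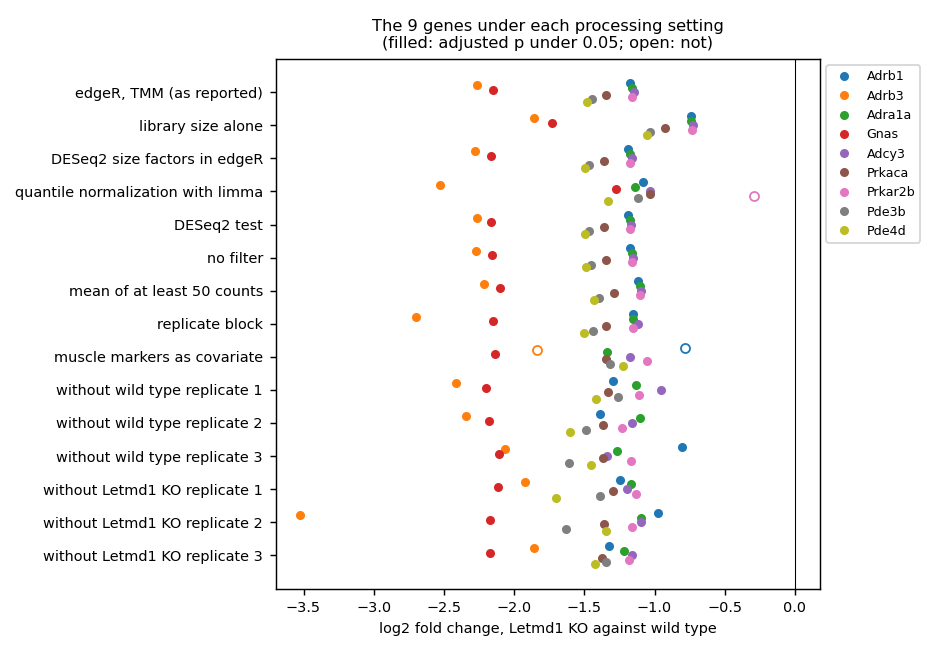
Log2 fold change of the 9 genes (x axis) under the reported fit and 14 alternatives (y axis), filled where the adjusted p passed and open where it did not. All points lie left of 0, with open points for *Prkar2b* after quantile normalization and for *Adrb1* and *Adrb3* with muscle markers as a covariate, and the *Adrb3* point without *Letmd1* KO replicate 2 lies farthest left at -3.52.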

How the data were processed

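Total RNA of 6 BAT samples was made into QuantSeq 3′ libraries. Per the labels and the submitters' processing notes, the authors aligned reads to mm10 with Bowtie2 and counted them per gene with bedtools; the deposited values are raw counts, 1 file per mouse, with unique and multiple alignments counted according to the study's methods. Versions, the annotation and use of strand are not given in the sources used here. Positions are GENCODE vM21 on GRCm38. Counts were tested with edgeR 4.0.16 (R 4.3.3): filterByExpr (minimum count 10, total 15), TMM, quasi-likelihood test, Benjamini-Hochberg adjustment over 12995 genes at 0.05, SE from the F statistic. Log2 CPM used a prior count of 2. limma 3.58.1 and DESeq2 1.42.0 were used as alternatives, beside other scalings, filters, a replicate block, muscle markers as a covariate and leaving out each mouse. Quantile normalization, used here with limma as an alternative, is the normalization that the study's methods name, there with edgeR. Permutation tests (SciPy 1.17.1) were two-sided. The fit was tested on simulated data. Replicate pairs differed by more than counting noise (chi-square per degree of freedom at least 11.5). The 9 genes and the lists were chosen with earlier results of these data known. Named pathway genes are the most negative and most positive called genes of each list with a mean of at least 20 counts. The labels number the replicates but do not state separate animals or pooling, so p-values measure the spread between these samples, which may be partly technical. 1 planned result and 1 gene of the lists are not reported here.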

Additional observations from a re-analysis of the deposited data

How the results depend on the processing

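All 9 genes kept a negative log2 fold change under the 14 alternatives, and all 9 passed in 12 of them; 8 passed after quantile normalization and 7 with muscle markers as a covariate. Over all genes the number called was 5979, and 3574 with muscle markers as a covariate (1770 lower, 1804 higher), where a degree of freedom is also lost; library size alone gave 1371 lower and 5891 higher. Leaving out 1 mouse gave 4842 to 5868 called genes. The replicate numbers did not pair the mice (correlations of deviations 0.07, -0.11 and -0.09), and a fit with the replicate block called 5599 genes and all 9. Without 1 mouse, the difference in the *Pde3b* share of *Pde3* counts ran from -0.061 to 0.018 percentage points, where *Pde3a* had too few counts to set a direction. Against brown adipocyte markers the relative values turned to 1.06 (*Adrb1*), 1.05 (*Adra1a*), 0.055 (*Gnas*), 1.09 (*Adcy3*), 0.86 (*Prkaca*), 1.05 (*Prkar2b*), 0.77 (*Pde3b*) and 0.71 (*Pde4d*); the brown markers fell further than the adipocyte markers. With 3 mice per genotype, differences near the spread of the wild-type mice, as in *Adrb1*, rest on few animals, and counts near 3 per library could not show a change. The α2-receptor genes were too low in counts to be tested by the reported fit.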
